A study of Mus musculus with 338 samples.

Results

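The genes described here are the potassium channel subunits of mouse pancreatic islets, 61 of the 21382 genes counted in islet RNA-seq libraries of 172 mice on a test diet and 166 on chow. They were chosen by their symbol, which starts with Kcn, and by a mean of at least 0.5 CPM, reads of the gene per 1000000 reads assigned to genes, over all libraries. Of 95 such symbols in the table, 31 were under this level and 3 were left out by name. The members closest above it were Kcnrg with 0.645 CPM, Kcne3 with 0.649 CPM and Kcna4 with 0.808 CPM. The symbols closest below it were Kcns3 with 0.491 CPM, Kcnk10 with 0.475 CPM and Kcnq3 with 0.472 CPM. For 1 member, Kcnj5, the choice rested on a single strain: its mean was 0.437 CPM over the 283 libraries of the strains other than DBA/2J. All 61 members also passed the filter on low counts that preceded the tests.

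Potassium channels carry potassium out of the cell and pull its membrane towards rest, so in a beta cell they oppose the calcium entry that releases insulin. Channels that open at low glucose hold the beta cell silent, voltage-gated Kv channels and calcium-activated BK and SK channels end each action potential or burst, and 2-pore-domain channels pass a leak current at all voltages. A channel is built of pore-forming subunits, which may join with silent pore subunits and with auxiliary subunits that change gating or traffic. By these roles 47 of the members form pores, 12 are auxiliary, Kcng3 is a silent subunit and Kcnq1ot1 is a long noncoding RNA transcribed antisense within Kcnq1.

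The mice of the high fat, high sugar diet (HFHS) numbered 40, 36, 47 and 49 at days 2, 10, 30 and 90 of feeding, and those of regular chow (RC) numbered 36, 32, 48 and 50. Each diet and day was covered by mice of the strains 129S2/SvPas, DBA/2J, A/J, C57Bl/6J, AKR/J and BALB/cJ, which made 48 groups of 4 to 11 mice with 1 library each. The labels name inbred strains and mention no introduced allele, and sex and age are not given in the sources used here. RNA was drawn from at least 150 islets a mouse, and the libraries held 9526926 to 50751894 reads assigned to genes. Counting error on 1 library is therefore small for members above 10 CPM and large for those near 0.5 CPM.

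Some libraries stood apart before any comparison was made. Genes rich in G and C were counted low in 39 libraries and high in 2, judged by a slope of expression on GC content beyond 0.5 on the log2 scale per 10 percentage points. These 41 libraries sat in 14 groups and included 6 of 6 BALB/cJ libraries on HFHS at day 2, and 7 of 8 DBA/2J libraries on RC at day 90. The members had a median exon GC content of 52.4%, against 49.6% for all genes. Each comparison was therefore fitted both without and with a correction for GC content, and a member is named as called only where both fits passed the threshold in the same direction. A further point is that 9 libraries matched a strain other than their label by genes nearly private to a strain, 4 labelled C57Bl/6J and 5 labelled 129S2/SvPas, all 9 among the 41. Kcnip3, a Kv channel interacting protein, also differed in them: the 4 libraries had 9.45 to 20.1 CPM (median 10.7), against 3.45 to 7.81 CPM (median 5.01) in the other 51 labelled C57Bl/6J. The 5 libraries labelled 129S2/SvPas had 1.04 to 6.47 CPM of Kcnip3 (median 2.57), against 6.29 to 16.99 CPM (median 12.6) in the other 60. Its exon GC content was 55.1%, and the part of the GC shift in these levels was not tested.

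Beta cell markers were unevenly held by the libraries. Ins1 and Ins2 took 0.24% to 43.6% of the assigned reads (median 21.7%); 9 libraries were under 1%, and all 9 were among the 41 with shifted GC content. In the libraries without the shift the lowest share was 14.2%. The summed level of 12 beta cell genes, Ins1 and Ins2 included, ran from 46724 to 462478 CPM, and no gene of the list was at 0 in every library. Other cells were present in all libraries too: 7 alpha cell genes summed to 5722 to 154198 CPM and 10 acinar cell genes to 26.2 to 76781 CPM. In whole islets fewer cells of a type and less RNA per cell cannot be told apart.

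The results on strain turn on a pair of inward rectifier genes, and the sequence around their transcription starts in the C57BL/6J reference is shown for that reason. Both windows run from 250 bases before to 50 bases after the start in RefSeq (GRCm38.p6), Kcnj5 at chr9:32344295-32344594 on the minus strand and Kcnj12 at chr11:61065554-61065853 on the plus strand. Capitals mark GGGCGG, the GC box bound by Sp1-family factors.
Kcnj5: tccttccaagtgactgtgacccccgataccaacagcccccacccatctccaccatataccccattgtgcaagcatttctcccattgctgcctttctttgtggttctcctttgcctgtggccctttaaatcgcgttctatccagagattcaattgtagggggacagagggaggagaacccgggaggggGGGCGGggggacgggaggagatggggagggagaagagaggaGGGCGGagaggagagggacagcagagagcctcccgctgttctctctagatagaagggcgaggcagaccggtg
Kcnj12: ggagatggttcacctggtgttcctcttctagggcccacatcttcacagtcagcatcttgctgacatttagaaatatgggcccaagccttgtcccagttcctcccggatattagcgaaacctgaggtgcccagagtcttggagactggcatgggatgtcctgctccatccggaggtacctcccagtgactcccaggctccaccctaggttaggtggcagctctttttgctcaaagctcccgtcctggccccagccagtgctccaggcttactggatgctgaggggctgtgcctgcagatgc
The Kcnj5 window held 2 GC boxes and the Kcnj12 window held none. With 4 other motifs it was searched on both strands of 32851 RefSeq promoter windows of this length: GGGCGG stood in 35.66% of them, CCAAT in 37.41%, TATAAA in 13.62%, CACGTG in 7.15% and TGACGTCA in 1.79%. Neither window held any of the other 4 motifs. A match is a description of these letters only. What the other strains carry at these positions was not analysed here.

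The 61 members together made up 1158 ± 141.8 CPM in HFHS islets (SD, n = 172) and 1148 ± 126.9 CPM in RC islets (SD, n = 166). Pore-forming genes took 74.3% of the members' CPM and auxiliary genes 24.2%, with 1.26% for Kcnq1ot1 and 0.151% for Kcng3. By family, 2-pore-domain channels held 21.9%, the EAG, ERG and ELK channels 19.5%, the BK beta subunits 11.6%, the Kv channel interacting proteins 9.17% and the BK channel itself 7.13%. The 9 inward rectifiers that are members held 4.24%, the SK and IK channels 4.66%, the 4 Kv3 channels 3.96%, the 3 Kv beta subunits 3.20% and the 4 Kv1 channels 1.56%. The 4 Kv7 channels held 1.03% and the 3 Kv4 channels 0.685%.

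Divided by exon length, the highest level belonged to Kcnk16, a 2-pore-domain channel known for its expression in the pancreas, with a mean of 71.8 CPM per kilobase over all libraries. Next came Kcnmb2, a BK beta subunit that inactivates the channel, with 42.3 CPM per kilobase, and Kcnip1, a calcium-binding partner of Kv4 channels, with 34.4 CPM per kilobase. Kcnh2, an ERG channel known for cardiac repolarization, had 24.95 CPM per kilobase. The leak channel Kcnk1 followed with 15.7, the ERG channel Kcnh6 with 15.4, and the SK channel Kcnn3 with 15.1 CPM per kilobase, 3 neighbours closer to each other than their SDs over libraries of 5.01, 5.30 and 6.89. Kcnj12, an inward rectifier, had 10.3 and the Kv beta subunit Kcnab3 10.1 CPM per kilobase. The lowest was the Kv3 pore Kcnc1 with 0.109 CPM per kilobase.

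**Figure D1:**
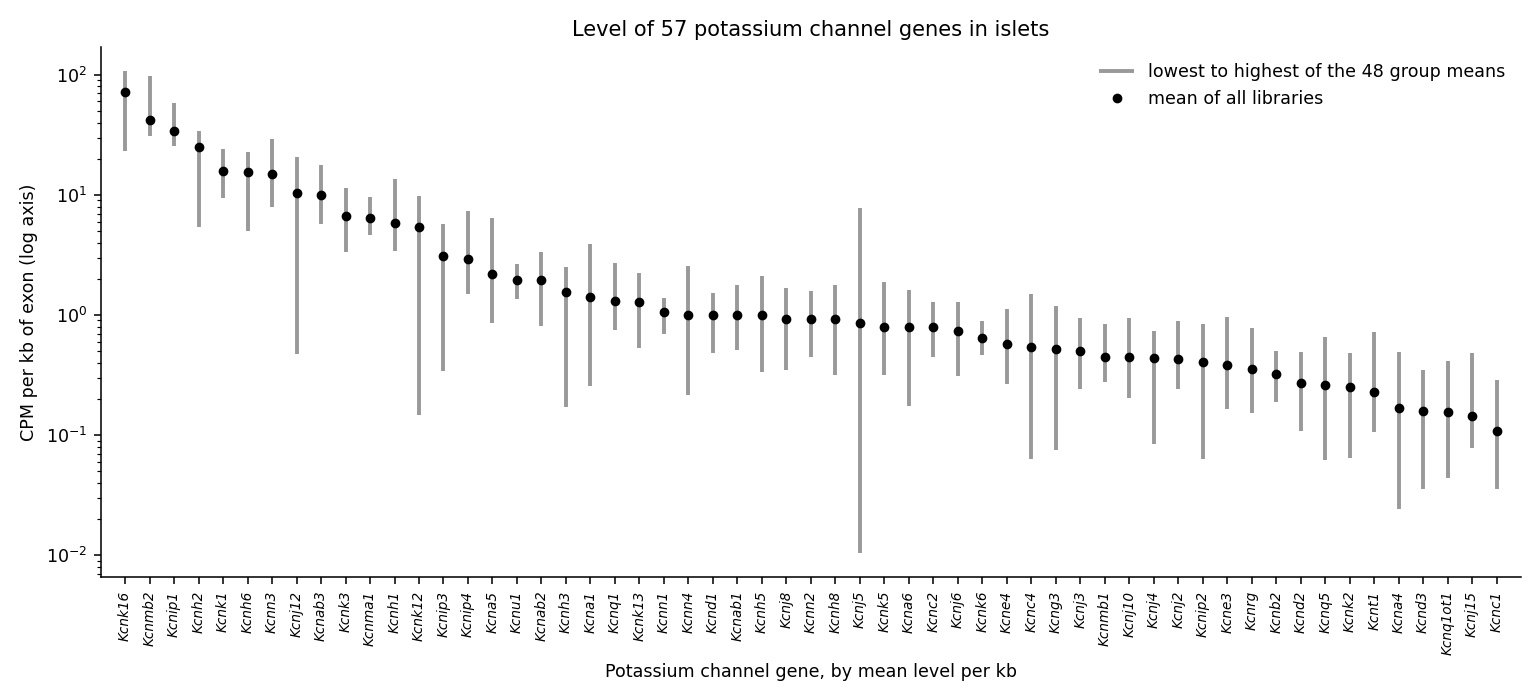
Level of 57 of the 61 potassium channel genes per kilobase of exon (CPM per kilobase, log axis), ordered from high to low; the point is the mean over all libraries and the line runs from the lowest to the highest mean of the 48 groups. Kcnk16 led with 71.8 CPM per kilobase, and the lines of Kcnj5, Kcnj12 and Kcnk12 were among the widest.

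The leading genes were not even across groups. The median of Kcnk16 was lowest, 44.1 CPM, in BALB/cJ mice on HFHS at day 2 and highest, 256 CPM, in 129S2/SvPas mice on HFHS at day 30. Kcnh2, Kcnh6, Kcnk12 and Kcnk13 also had their lowest median in BALB/cJ mice on HFHS at day 2, with 27.03, 16.1, 0.314 and 1.50 CPM, and Kcnmb2 had its highest there, 303 CPM. All 6 libraries of that group had the low GC-rich counts described above, and the exon GC content of Kcnh2, Kcnh6 and Kcnk12 was 60.9%, 57.8% and 69.4%, against 41.2% for Kcnmb2. How much of these extremes came with the libraries was not tested for a single group. By strain, Kcnk16 had medians of 235 CPM in 129S2/SvPas, 197 in C57Bl/6J, 180 in A/J, 160.98 in DBA/2J, 146.9 in AKR/J and 155.6 in BALB/cJ, and every strain's range overlapped the others'. Kcnk1 was highest in 129S2/SvPas, with 34.5 to 70.2 CPM (median 49.5), and lowest in BALB/cJ, with 19.0 to 33.4 CPM (median 22.3). Neither Kcnk16 nor Kcnk1 passed the strain threshold given next in any strain.

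Each strain was compared with the mean of the other 5 on the same diet over the 4 days. A gene was called where the adjusted p was under 0.05 and the log2 difference reached 1 in size, in edgeR's quasi-likelihood test. A strain far from the rest is in the mean that each other strain is set against, so it shifts their differences too. Kcnj5 is left out of these counts, because the level in DBA/2J alone made it a member. Of the other 60 members, 1 to 5 were called per strain and diet, and those called on both diets changed in the same direction on both. On HFHS the numbers called were 5 in DBA/2J, 4 in 129S2/SvPas, 3 in A/J and 2 each in AKR/J, C57Bl/6J and BALB/cJ, against 3.16%, 4.37%, 3.08%, 3.44%, 3.56% and 2.83% of all genes tested. On RC, in other mice, the numbers were 3, 3, 2, 3, 1 and 2 in the same order, against 3.22%, 2.77%, 2.79%, 2.93%, 2.99% and 2.77% of all genes tested. As shares of 60 members these were 1.67% to 8.33%. Reads of all strains were aligned to the mm9 genome, which is C57BL/6J, and the part of sequence differences between strains in the counts was not tested.

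Kcnj5, a pore subunit of G protein-gated inward rectifiers, was nearly private to DBA/2J among the members. It had 12.9 to 34.3 CPM (median 17.8) in 28 DBA/2J mice on HFHS and 15.9 to 49.3 CPM (median 24.2) in 27 on RC, against 0 to 2.73 CPM (median 0.225) in the 283 mice of the other strains. All 55 DBA/2J libraries were above all 283 others. The log2 difference was 5.77 on HFHS and 5.80 on RC, given without an SE or a test because this strain alone brought Kcnj5 over the CPM threshold. Among the remaining strains it was detected best in A/J, with 0.588 to 2.18 CPM (median 1.297) on HFHS and 0.596 to 2.73 CPM (median 1.22) on RC. AKR/J had 0 to 0.634 CPM (median 0.0563) on HFHS and 0.0334 to 0.369 CPM (median 0.1416) on RC, the lowest of the strains on HFHS. Of the other subunits of this channel class, Kcnj3 was higher in DBA/2J by 0.29 ± 0.09 (SE) on HFHS and 0.38 ± 0.10 on RC and Kcnj6 by 0.14 ± 0.08 and 0.46 ± 0.08, all under the threshold of 1, and Kcnj9 was under 0.5 CPM and not a member.

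Kcnj12, an inward rectifier pore, was nearly absent from A/J islets. It had 0.273 to 3.09 CPM (median 1.67) in 28 A/J mice on HFHS and 0.374 to 3.65 CPM (median 1.81) in 25 on RC, against 1.86 to 66.2 CPM (median 31.003) in the 285 mice of the other strains. Only 2 of those 285 fell to the A/J range, 1 of them among the 9 libraries that matched another strain. The log2 difference was −4.13 ± 0.14 (SE) on HFHS, with an adjusted p of 5.2e-87, and −4.13 ± 0.16 on RC, with an adjusted p of 2.2e-74. In DBA/2J it was higher than in the other strains, by 1.35 ± 0.09 on HFHS (adjusted p = 5.3e-37) and 1.05 ± 0.09 on RC (adjusted p = 2.8e-23), figures that include A/J in the mean it was set against. On RC it was also higher in AKR/J, by 1.55 ± 0.09, and in BALB/cJ, by 1.02 ± 0.09. The BALB/cJ difference was 0.99 and under the threshold without the 9 libraries. A/J is again in the mean that both strains were set against.

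Of the 4 Kv channel interacting proteins, calcium sensors that bind Kv4 pores, Kcnip2 and Kcnip3 were called between strains. Kcnip3 had 0.535 to 2.85 CPM (median 1.57) in DBA/2J mice on HFHS and 0.805 to 2.48 CPM (median 1.60) on RC, against 1.04 to 28.1 CPM (median 12.5) in the other strains. Without the 9 libraries that matched another strain, 52 of the 55 DBA/2J libraries were below all 274 others. The difference was −2.74 ± 0.11 on the log2 scale on HFHS (adjusted p = 4.2e-72) and −2.80 ± 0.11 on RC (adjusted p = 1.6e-70). In BALB/cJ on HFHS Kcnip3 was higher by 1.01 ± 0.08 (adjusted p = 6.8e-28). This is just over the threshold of 1, and the mean that BALB/cJ was set against includes the low DBA/2J. C57Bl/6J lay between, with 3.96 to 11.4 CPM (median 5.55) on HFHS and 3.45 to 20.1 CPM (median 4.81) on RC, and no C57Bl/6J library that matched its label was above 7.81 CPM.

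Kcnip2 was called in 5 strains, the most of the 60 members counted, at no more than 3.80 CPM in any library. On HFHS its medians were 1.72 CPM in C57Bl/6J, 1.31 in 129S2/SvPas, 1.27 in DBA/2J, 0.297 in AKR/J, 0.254 in A/J and 0.401 in BALB/cJ. On RC they were 1.61, 1.33, 1.94, 0.295, 0.240 and 0.579 CPM in that order. It was lower in A/J, by −1.47 ± 0.12 on HFHS and −1.71 ± 0.14 on RC, and in AKR/J, by −1.26 ± 0.12 on HFHS and −1.33 ± 0.12 on RC. It was higher in C57Bl/6J, by 1.26 ± 0.09 on HFHS and 1.27 ± 0.09 on RC, in DBA/2J, by 1.08 ± 0.09 and 1.41 ± 0.09, and on HFHS alone in 129S2/SvPas, by 1.06 ± 0.09. The adjusted p of these calls was at most 6.0e-20. Kcnip1, the member of this family with the highest level, and Kcnip4 were called in no strain.

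The strain 129S2/SvPas stood out by pore genes of the Kv1 and Kv3 families. Kcna5, a Kv1 pore known from cardiac and vascular muscle, had 3.21 to 26.6 CPM (median 12.3) on HFHS and 4.04 to 21.3 CPM (median 12.3) on RC, against 1.58 to 14.99 CPM (median 4.40) in the 273 mice of the other strains. The difference was 1.43 ± 0.06 on HFHS (adjusted p = 1.0e-66) and 1.44 ± 0.06 on RC (adjusted p = 3.5e-64), and the ranges overlapped. Kcnc4 was higher by 1.35 ± 0.08 on HFHS and 1.32 ± 0.08 on RC, and Kcnc1 by 1.43 ± 0.08 and 1.17 ± 0.09. Kcnc1 is a fast delayed rectifier pore and Kcnc4 a rapidly inactivating pore of the Kv3 family. Kcnc4 had medians of 3.49 CPM on HFHS and 4.18 CPM on RC there, against 0.749 and 1.34 CPM in AKR/J, where it was lower than in the other strains on HFHS by −1.14 ± 0.11 (adjusted p = 7.1e-21). Kcnc2, also of the Kv3 family, was called in no strain.

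**Figure D2:**
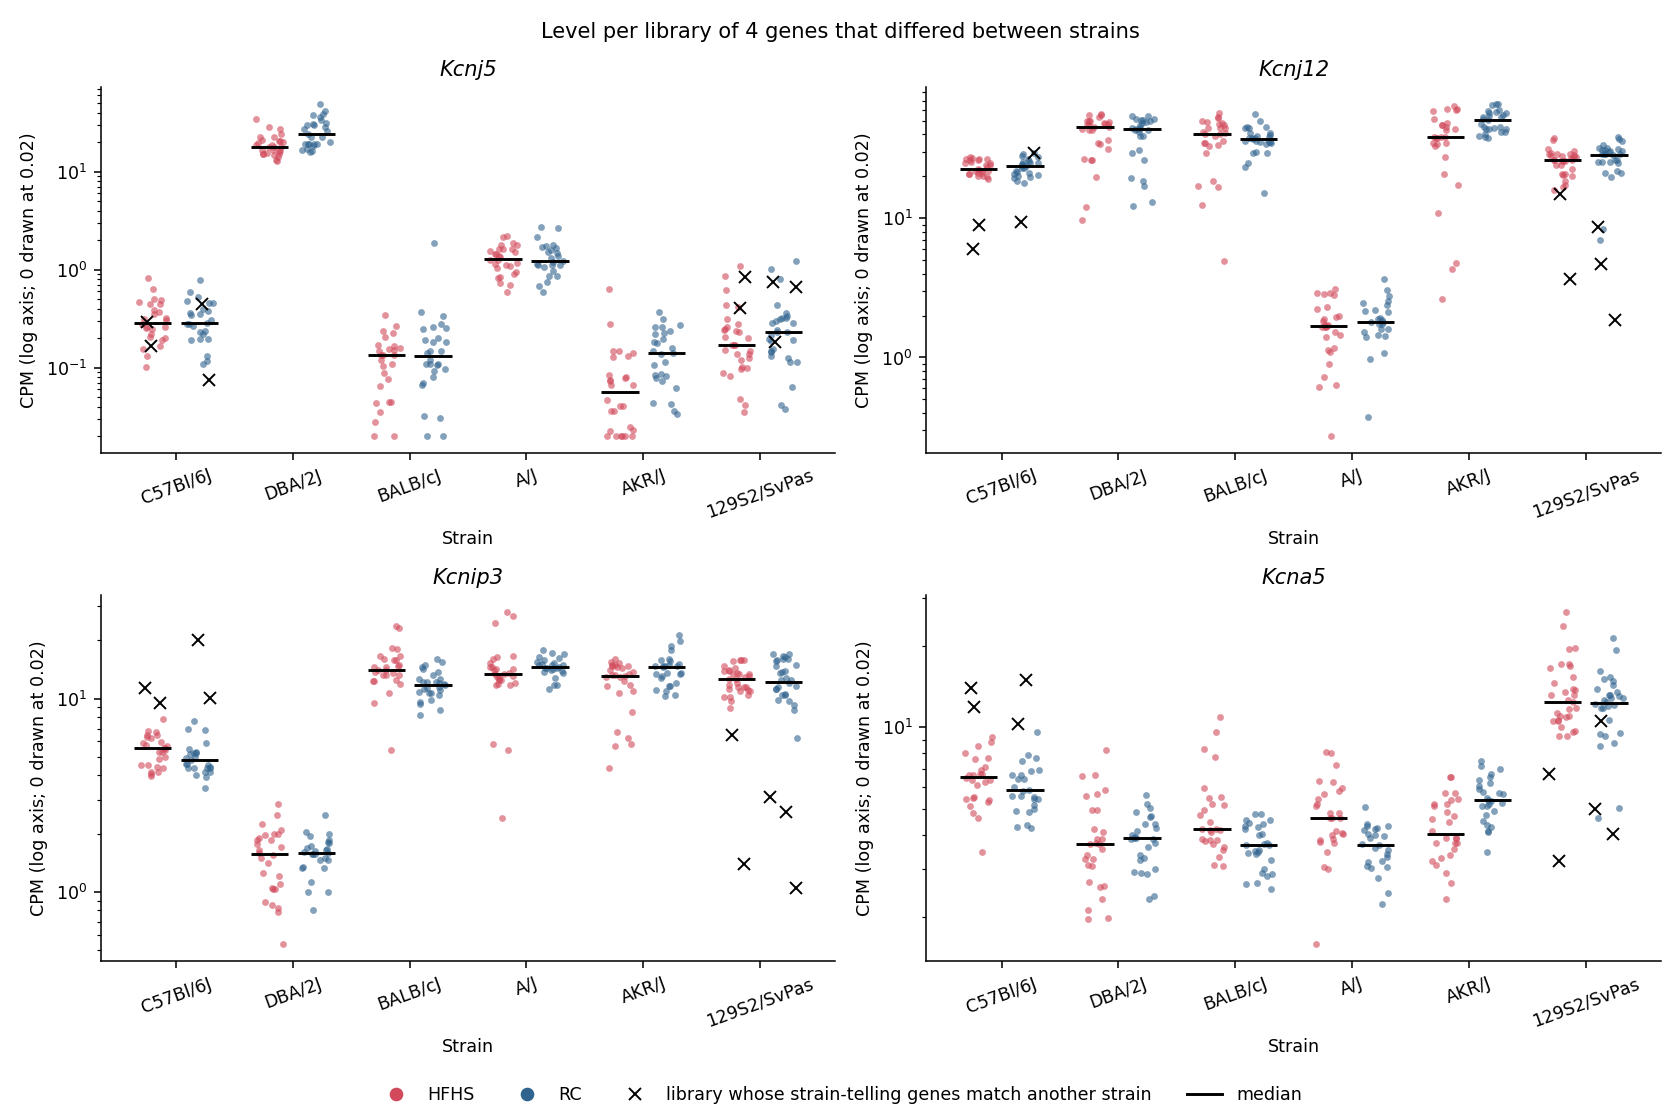
CPM of Kcnj5, Kcnj12, Kcnip3 and Kcna5 in each library (log axis, 1 point a library) by strain, HFHS left of RC; crosses are the 9 libraries that matched a strain other than their label. Kcnj5 was above 12.8 CPM in every DBA/2J library and at most 2.73 CPM elsewhere, Kcnj12 was at most 3.65 CPM in A/J, and Kcnip3 was at most 2.85 CPM in DBA/2J.

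Fewer members marked the remaining strain contrasts. Kcnq1ot1, the imprinted antisense RNA, was lower in BALB/cJ, with medians of 5.12 CPM on HFHS and 5.92 CPM on RC; the differences were −1.22 ± 0.18 (adjusted p = 5.4e-10) and −1.17 ± 0.18 (adjusted p = 1.3e-09). Its exons overlap those of Kcnq1 on the other strand, and the library kit does not keep strand. Reads of the shared 3.99% of Kcnq1 exon bases therefore cannot be assigned to either. Kcnq1ot1 lies inside Kcnq1 and shares 0.13% of its own exon bases with it, so reads from Kcnq1 introns can also add to its count. How much they added was not tested. Kcnt1, a sodium-activated channel, was higher in AKR/J on RC by 1.43 ± 0.09 (adjusted p = 6.4e-40); on HFHS it passed the threshold without the GC correction alone. The silent subunit Kcng3 was higher in C57Bl/6J on HFHS by 1.27 ± 0.12, with 0.975 to 5.97 CPM (median 3.44). On HFHS the neuronal Kv1 pore Kcna1 was higher in A/J by 1.12 ± 0.10 and lower in DBA/2J by −1.10 ± 0.13, and the Kv4 pore Kcnd3 was lower in DBA/2J by −1.15 ± 0.12.

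For diet a gene was called at an adjusted p under 0.05 with no limit on size. Averaged over the 24 strain and day pairs, 20 of 61 members were called for HFHS against RC, 9 higher and 11 lower, which is 32.8% of the members against 10.6% of all genes tested, with 4.71% higher and 5.86% lower, and a median log2 change of −0.01 against −0.002. Among the genes tested with a mean of at least 0.5 CPM, the members' own level, 11.1% were called. Every one of these 20 changes was at most 0.33 in size on the log2 scale. Without the 41 libraries of shifted GC content 32 were called, 18 of them higher, and in 208 mice of 4 strains with the mouse number as a block 10 were called, 2 of them higher. The shares of all genes called in these alternatives were not computed, so whether all genes moved alike is not known.

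The lower members were led by Kcnc4, at 0 to 5.38 CPM (median 1.52) on HFHS and 0.522 to 6.24 CPM (median 1.78) on RC. Its change was −0.33 ± 0.05 (SE; adjusted p = 2.2e-08), and its group median was lower on HFHS in 22 of the 24 strain and day pairs. Kcnh5, an EAG pore, had 0.5004 to 12.01 CPM (median 2.91) on HFHS and 0.207 to 12.04 CPM (median 3.82) on RC, a change of −0.31 ± 0.06 (adjusted p = 4.6e-05) seen in 21 of 24 pairs. The ranges of the diets overlapped for both genes. Kcnd3 fell by 0.29 ± 0.06 (17 of 24 pairs), Kcna4 by 0.26 ± 0.06 (17 pairs), Kcnj5 by 0.24 ± 0.07 (18 pairs) and the Kv1 pore Kcna6 by 0.20 ± 0.06 (16 pairs). Outside DBA/2J the median of Kcnj5 was 0.225 CPM in 283 libraries, so most of its pairs compare very low counts. Kcna4 and the Kv4 pore Kcnd3 carry fast inactivating A-type currents. Kcnk2, Kcnj8, Kcnj10 and Kcnh1 were also lower.

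The higher members were led by Kcnk12, a 2-pore-domain channel, whose 0.33 ± 0.10 was split evenly over 12 higher and 12 lower pairs. In the same 208 mice with no block, without C57Bl/6J and DBA/2J, its change was −0.08 (adjusted p = 0.62). Kcnj4, an inward rectifier, had 0 to 3.32 CPM (median 0.994) on HFHS and 0.0265 to 1.91 CPM (median 0.866) on RC, a change of 0.21 ± 0.07 (adjusted p = 0.017). Kcnab3, which binds the inner face of Kv1 channels, had 10.8 to 55.5 CPM (median 25.99) on HFHS and 9.49 to 47.5 CPM (median 23.4) on RC. It rose by 0.17 ± 0.02 (adjusted p = 1.6e-09), in 19 of 24 pairs, the smallest p of the 20. Kcna5, Kcnj2 and Kcnk3 rose by 0.14 each, with SEs of 0.04, 0.05 and 0.04, and Kcnn2, Kcnh8 and Kcnk1 rose by less. Exons of Kcnn2 share 7.7% of their bases with an antisense gene.

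Cell type markers moved with diet as well. Averaged over all days, 7 of 7 stellate cell and fibroblast genes and 8 of 12 Schwann cell and neuron genes were lower on HFHS, with medians of −0.31 and −0.18 on the log2 scale. Of the 7 alpha cell genes 1 was higher and none lower, and of the 12 beta cell genes 1 was higher and 2 lower. The part of other cell types in the members' changes was not tested.

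The days differed. At day 2 HFHS called 8 members, 5 higher and 3 lower, against 14.1% of all genes, of which 6.64% higher and 7.47% lower. Without the GC correction 21 members, 7 of them higher, and 42% of all genes passed. Higher were Kcnh8, an ELK channel, by 0.43 ± 0.08 (adjusted p = 4.9e-06), Kcna5 by 0.35 ± 0.08, Kcna1 by 0.33 ± 0.13, Kcnmb2 by 0.30 ± 0.06 and Kcnn2 by 0.21 ± 0.07. Lower were Kcnn4, the calcium-activated channel of blood and epithelial cells, by −0.83 ± 0.20 (adjusted p = 9.4e-04), Kcnh3 by −0.57 ± 0.15 and Kcnj5 by −0.39 ± 0.13. Outside DBA/2J the median of Kcnj5 over all days and diets was 0.225 CPM. Without the 41 libraries of shifted GC content the adjusted p in edgeR's test was 0.83 for Kcna1, 0.48 for Kcnh3, 0.39 for Kcnj5 and 0.058 for Kcnn4. That of Kcna1 was also 0.051 without A/J RC replicate 1, in a Wald form of the test. Also at day 2, 6 of 8 macrophage genes and 6 of 8 pericyte and smooth muscle genes were lower on HFHS, with medians of −0.53 and −0.58. Of the 12 beta cell genes 4 were lower and none higher, with a median of −0.17. Of the 7 stellate cell and fibroblast genes 4 were lower, and of the 7 alpha cell genes 1 was higher and none lower. The part of these cell types in the members' changes was not tested. At day 10 no member was called in edgeR's test, with 0.836% of all genes. At an unadjusted p under 0.05 there were 5 members, and DESeq2 called 0. Without the 41 libraries of shifted GC content edgeR called 6 members at day 10, 5 of them higher. Without the 9 libraries that matched another strain it called 1, and 3 with the GC correction as well. Shares of all genes in these alternatives were not computed.

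At day 30, of 12 members called, 10 were lower and 2 higher on HFHS, against 4.19% and 2.97% of all genes. Without the 41 libraries of shifted GC content 26 were called, 11 of them higher, and 3 to 5 in the 208 mice of 4 strains, with no share of all genes computed for these alternatives. Kcnd3 was at 0.141 to 2.25 CPM (median 0.743) on HFHS and 0.474 to 3.00 CPM (median 1.23) on RC, a change of −0.68 ± 0.11 (adjusted p = 9.3e-07). Kcnk2, a stretch- and lipid-sensitive leak channel, had 0.303 to 1.58 CPM (median 0.789) on HFHS and 0.605 to 2.90 CPM (median 1.11) on RC, a change of −0.47 ± 0.09 (adjusted p = 2.4e-05). Kcna4 fell by 0.46 ± 0.13, Kcna1 by 0.43 ± 0.11, Kcnq5 by 0.39 ± 0.13 and Kcna6 by 0.39 ± 0.10, so 3 of the 4 Kv1 pores were lower. Kcnab3 rose by 0.30 ± 0.04 (adjusted p = 4.2e-08) and Kcnk12 by 0.74 ± 0.17. At the same day 5 of 7 stellate cell and fibroblast genes and 6 of 12 Schwann cell and neuron genes were lower on HFHS, with medians of −0.53 and −0.25, and their part in the members' changes was not tested.

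At day 90, of 11 members called, 8 were lower and 3 higher, against 5.81% and 6.80% of all genes. Kcng3 fell by 0.65 ± 0.13 (adjusted p = 1.1e-04), Kcna4 by 0.52 ± 0.12, Kcnd3 by 0.48 ± 0.10, Kcnh5 by 0.45 ± 0.11, Kcnq5 by 0.45 ± 0.12 and Kcnc4 by 0.35 ± 0.09. Kcnab3 was at 10.8 to 55.5 CPM (median 28.2) on HFHS and 12.6 to 47.5 CPM (median 21.1) on RC, and rose by 0.32 ± 0.04 (adjusted p = 3.3e-09). Kcnk12 rose by 0.81 ± 0.17 and Kcnn4 by 0.69 ± 0.17. The Kcnk12 value was 0.44 with the GC correction and −0.0207 (adjusted p = 0.99) in the 208 mice of 4 strains without DBA/2J and C57Bl/6J. Without the 41 libraries of shifted GC content the adjusted p was 0.33 for Kcng3, 0.063 for Kcna4, 0.062 for Kcnd3 and 0.055 for Kcnn4. The change with diet differed between days for 14 members, against 21.3% of all genes, Kcnab3 (adjusted p = 1.2e-05), Kcnk12 and Kcnn4 among those with the smallest p.

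The diet change differed between strains for 32 of the 61 members, a share of 52.5% beside 51.6% of all genes tested. Within single strains the members called on HFHS against RC numbered 18 in AKR/J, 14 in DBA/2J, 13 for BALB/cJ, 5 in 129S2/SvPas, 2 in A/J and 0 in C57Bl/6J. The same rule called 17.5%, 16.2%, 20.5%, 4.90%, 6.53% and 0.352% of all genes in that order. C57Bl/6J had no member called in edgeR's test, and at an unadjusted p under 0.05 it had 4. These counts include the 9 libraries that matched another strain. They were 2 of 8 C57Bl/6J libraries on HFHS and 2 of 7 on RC at day 90. In 129S2/SvPas they were 2 of 10 on HFHS and 3 of 8 on RC at day 2. Single-strain counts without them are not given here.

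AKR/J had the most calls, 13 lower and 5 higher, against 10.2% and 7.34% of all genes. Lower were Kcnc4 by −0.86 ± 0.13 (adjusted p = 5.9e-08), Kcna4 by −0.85 ± 0.17, Kcna6 by −0.83 ± 0.14, Kcna1 by −0.77 ± 0.15, Kcnd3 by −0.74 ± 0.14 and Kcnj8 by −0.74 ± 0.13. Kcnj8 is the pore of vascular ATP-sensitive channels. Higher were Kcnn3 by 0.40 ± 0.14, Kcnab3 by 0.36 ± 0.06, Kcnh1 by 0.28 ± 0.09, Kcnk1 by 0.28 ± 0.05 and Kcnip1 by 0.22 ± 0.04.

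The AKR/J mice on HFHS at day 90, 8 on each diet, held the lowest group median of all 48 groups for Kcna1, Kcna4, Kcna6, Kcnc4, Kcnj8 and Kcnk2. Kcna1 had 0.525 to 2.55 CPM (median 0.955) on HFHS and 2.45 to 4.98 CPM (median 3.31) on RC. Kcna6 had 0.624 to 2.26 CPM (median 0.849) on HFHS and 1.74 to 4.28 CPM (median 2.97) on RC. The ranges of the diets overlapped for both. Kcnd3 had 0.184 to 0.771 CPM (median 0.301) on HFHS and 1.00 to 1.40 CPM (median 1.17) on RC, with no overlap. Kcnj12 had 2.63 to 34.4 CPM (median 14.1) on HFHS and 37.98 to 44.99 CPM (median 40.97) on RC, again with no overlap. Kcnh1 went the other way, with 68.1 to 118.5 CPM (median 102.3), its highest group median, on HFHS and 58.6 to 83.0 CPM (median 64.7) on RC. None of the AKR/J libraries was among the 41 with a GC shift or the 9 that matched another strain.

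Marker lists of other cell types differed in the same AKR/J mice, and which cells expressed each listed gene was not measured. At day 90 the 7 alpha cell genes summed to 5722 to 19846 CPM (median 8179) on HFHS and 17749 to 25099 CPM (median 20639) on RC. The 12 Schwann cell and neuron genes summed to 268 to 299 CPM (median 278) on HFHS and 278 to 338.02 CPM (median 298) on RC, and the 7 stellate cell and fibroblast genes to 95.0 to 874 CPM (median 218) on HFHS and 248 to 674 CPM (median 421) on RC. In each of these lists the ranges of the diets overlapped. Over all days in AKR/J, 8 of 12 Schwann cell and neuron genes, 7 of 7 stellate cell genes and 3 of 7 alpha cell genes were lower on HFHS, with medians of −0.62, −0.81 and −0.32. The part of cell composition in the AKR/J changes was not tested.

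BALB/cJ went the other way for some of the same genes. Kcna4 was higher on HFHS by 0.45 ± 0.16 (adjusted p = 0.029), Kcna5 and Kcna6 by 0.36 each, Kcne4, an auxiliary subunit of Kv channels, by 0.38 ± 0.12 and Kcnk2 by 0.31 ± 0.11. Kcna4, Kcna6 and Kcnk2 were lower in AKR/J, and the test that the diet change differs between strains passed for all 3, with adjusted p of 2.1e-05, 1.3e-06 and 5.5e-07. Kcnh5 was lower in BALB/cJ by −0.47 ± 0.14 and Kcnh1 by −0.45 ± 0.09 (adjusted p = 7.1e-05). The BALB/cJ rise of Kcna4 was largest at day 2, with 1.47 to 3.40 CPM (median 2.08) on HFHS and 0.488 to 1.68 CPM (median 0.704) on RC, where all 6 HFHS libraries had low GC-rich counts.

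In DBA/2J, 9 members were lower and 5 higher on HFHS, against 7.40% and 8.76% of all genes. Kcng3 fell by 0.64 ± 0.17, Kcnq5 by 0.62 ± 0.17, Kcna1 by 0.57 ± 0.16, Kcnh5 by 0.54 ± 0.16 and Kcnd3 by 0.52 ± 0.16. Kcnk12 had the largest diet change of any member in any strain, 2.14 ± 0.24 (adjusted p = 4.1e-14), and 1.24 with the GC correction. It had 13.6 to 16.8 CPM (median 15.9) on HFHS and 0.235 to 2.24 CPM (median 0.882) on RC at day 30, while at day 2 the medians were 13.3 and 13.6 CPM. Kcnk12 is the member richest in G and C, 69.4%, and GC slopes at that day were 0.0782 to 0.325 in the 8 HFHS libraries and −0.816 to −0.259 in the 8 RC libraries, 4 of which were beyond the bound of 0.5. The part of GC content was not tested beyond the correction. In 129S2/SvPas, Kcnd3 fell by 0.74 ± 0.13 (adjusted p = 2.2e-06) and Kcnk2 by 0.49 ± 0.11, and Kcnk5, an alkaline-sensitive leak channel, rose by 0.58 ± 0.15 and Kcnab3 by 0.35 ± 0.06. In A/J, Kcnd1 fell by 0.32 ± 0.12 and Kcna5 rose by 0.39 ± 0.10.

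**Figure D3:**
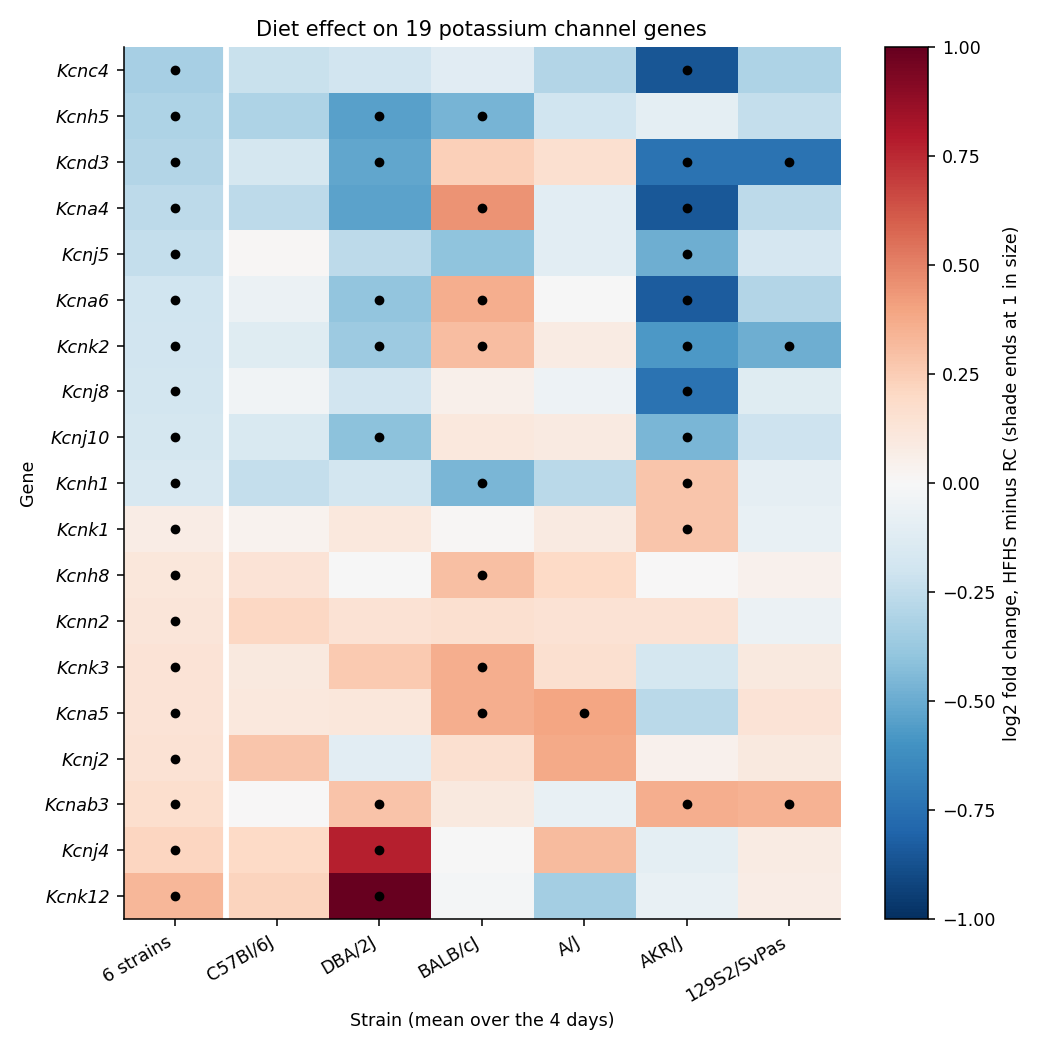
Log2 change on HFHS against RC of 19 of the 20 members called over all days, in each of the 6 strains (mean over 4 days) and over all strains, without the GC correction; a dot marks a change that passed an adjusted p of 0.05 in both fits. AKR/J showed the deepest falls, −0.86 for Kcnc4 and −0.85 for Kcna4, and BALB/cJ the opposite sign for Kcna4, Kcna6 and Kcnk2, while Kcnk12 in DBA/2J, at 2.14, was the strongest rise.

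More members were called for time than for diet over all days, and so were more of all genes tested. Of all genes, 33.4% were called for time on HFHS and 22% on RC, against 10.6% for diet. Day 90 was compared with day 2 on each diet, averaged over the strains, and time on diet and age cannot be told apart. On HFHS 32 members were called, 11 higher and 21 lower, against 16.2% and 17.2% of all genes. On RC, in other mice, 21 were called, 8 higher and 13 lower, against 8.54% and 13.5% of all genes. Of these, 15 were called on both diets and all 15 in the same direction, which is 46.9% of the HFHS list and 71.4% of the RC list. Of all genes tested, 1633 were called on both diets and 1476 in the same direction, which is 26.8% and 40.7% of the lists.

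The Kv1 pores Kcna1, Kcna4 and Kcna6 fell on both diets. Kcna1 had medians of 8.91, 6.35, 4.51 and 3.26 CPM at days 2, 10, 30 and 90 on HFHS and 6.53, 7.52, 5.77 and 3.35 CPM on RC. Its range at day 90 was 0.481 to 15.9 CPM on HFHS and 0.433 to 12.4 CPM on RC, and that at day 2 was 0.825 to 25.2 and 2.52 to 14.6 CPM. The log2 change was −1.481 ± 0.12 on HFHS (adjusted p = 1.5e-25) and −0.85 ± 0.12 on RC (adjusted p = 7.0e-10). Kcna6 changed by −1.17 ± 0.11 on HFHS (adjusted p = 1.2e-20) and −0.86 ± 0.11 on RC (adjusted p = 5.3e-12), and Kcna4 by −1.16 ± 0.13 and −0.67 ± 0.13. Kcna5, the fourth Kv1 member, changed by −0.48 ± 0.07 on HFHS and was not called on RC.

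Kcnq5, a Kv7 pore of the M-current type, had medians of 2.29, 1.91, 1.23 and 0.784 CPM on HFHS and 1.96, 1.77, 1.56 and 1.478 CPM on RC over the 4 days. It changed by −1.16 ± 0.13 on HFHS (adjusted p = 1.5e-15) and −0.53 ± 0.13 on RC (adjusted p = 5.5e-04). Kcnk2 changed by −0.60 ± 0.09 on HFHS and −0.56 ± 0.09 on RC. Kcng3 and Kcnab1 were lower on HFHS by −0.77 ± 0.14 and −0.63 ± 0.08, and Kcnab1 also on RC by −0.46 ± 0.09.

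Of the 11 members higher on HFHS, 4 belonged to the 6 EAG, ERG and ELK channels and 4 to the 8 2-pore-domain channels. Of the 8 higher on RC, 2 belonged to each family. Kcnh3, an ELK channel counted on HFHS, was at −0.00246 without the 41 libraries of shifted GC content (adjusted p = 0.999 in edgeR's test). Kcnh5 had medians of 2.51, 3.35, 2.83 and 3.86 CPM on HFHS and 2.56, 3.58, 4.21 and 5.36 CPM on RC, a rise of 0.53 ± 0.12 on HFHS (adjusted p = 7.5e-05) and 0.75 ± 0.12 on RC (adjusted p = 9.7e-08). Kcnk13, a leak channel of the same subfamily as Kcnk12, had medians of 2.39, 3.42, 3.79 and 4.44 CPM on HFHS and 3.33, 4.13, 4.02 and 4.11 CPM on RC. It rose by 0.80 ± 0.08 on HFHS and 0.27 ± 0.08 on RC. Kcnk5 rose by 0.57 ± 0.12 on HFHS and 0.42 ± 0.13 on RC, and Kcnh1 by 0.53 ± 0.07 and 0.30 ± 0.08, the last with an adjusted p of 0.092 without the 41 libraries of shifted GC content. Kcnk12 and Kcnn4 rose on HFHS, by 1.31 ± 0.19 and 1.25 ± 0.19, and the inward rectifier Kcnj3 on RC, by 0.47 ± 0.11. These sizes are without the GC correction. The exon GC content of Kcnk12 was 69.4%, and 6 of 6 BALB/cJ libraries on HFHS at day 2 had low GC-rich counts. The part of GC content in the Kcnk12 rise was not tested beyond the correction.

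**Figure D4:**
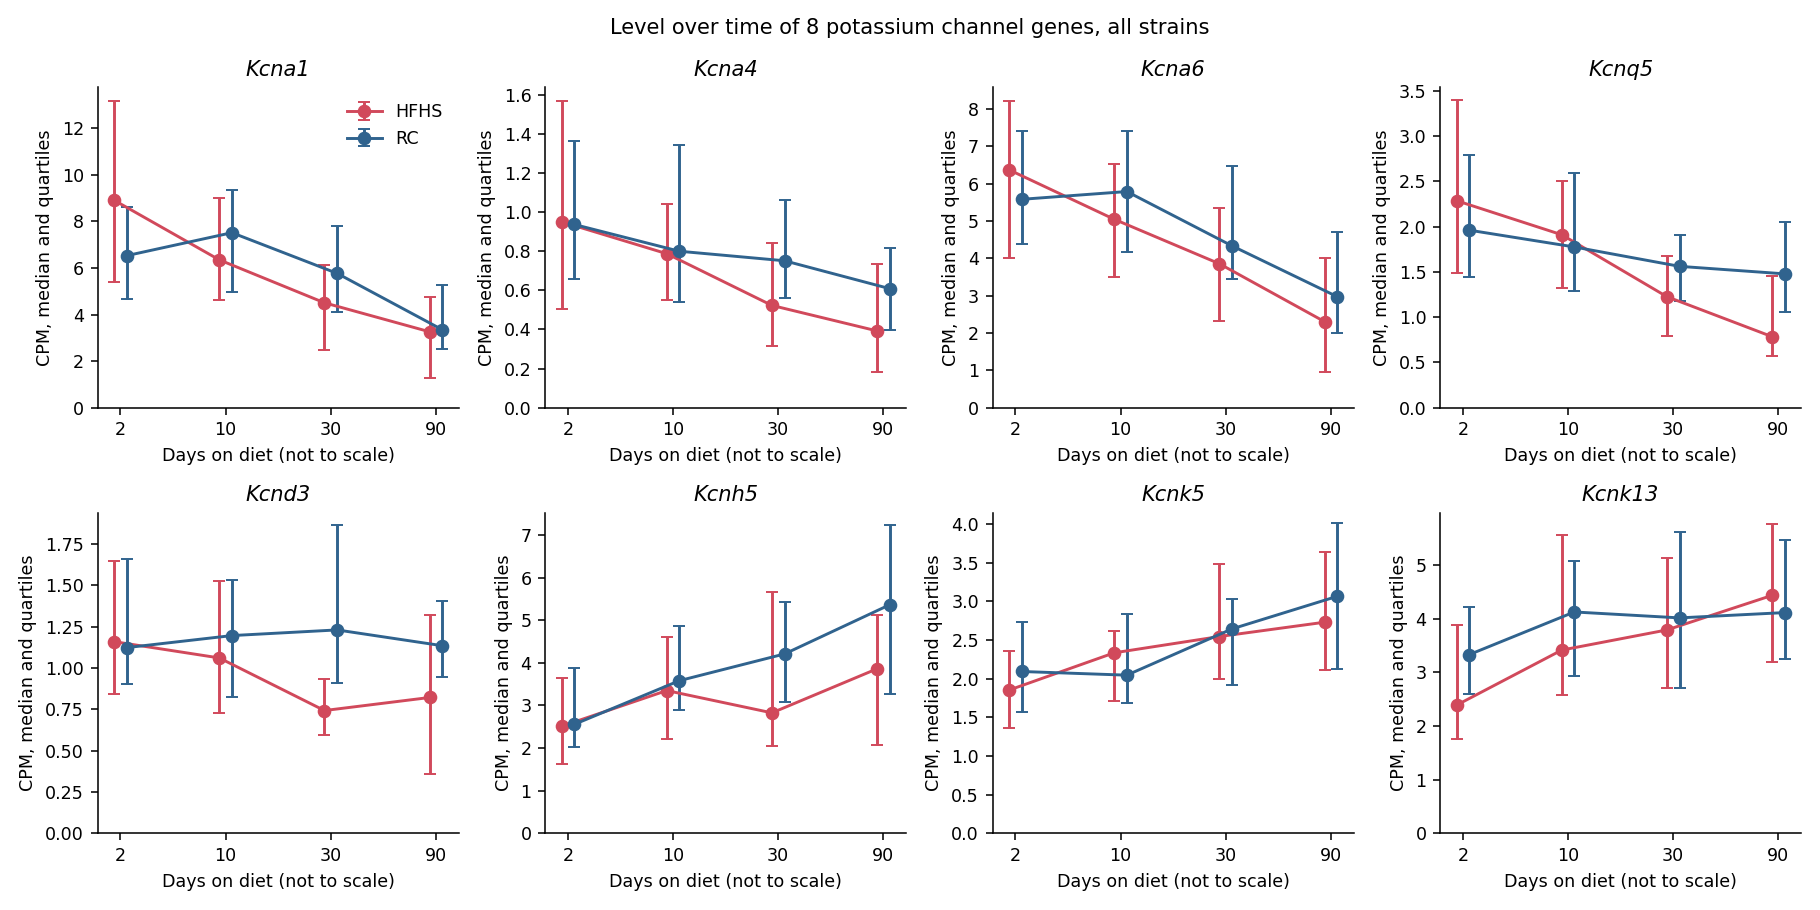
CPM of 8 members at days 2, 10, 30 and 90 of diet, over all strains, with HFHS and RC drawn side by side at each day; points are medians of 32 to 50 mice and bars run from the lower to the upper quartile. Kcna1, Kcna4, Kcna6 and Kcnq5 fell with time on both diets, and Kcnh5, Kcnk5 and Kcnk13 rose on both.

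Genes listed as markers of islet cells also moved with time, and which cells expressed them was not measured. Of the 7 alpha cell genes, 5 were lower at day 90 on each diet, with medians of −0.41 on HFHS and −0.38 on RC. The summed alpha cell level had medians of 42910, 46408, 30454 and 28698 CPM on HFHS and 42835, 42752, 37203 and 33226 CPM on RC at days 2, 10, 30 and 90. Of the 12 Schwann cell and neuron genes, 9 were lower and 1 higher on HFHS and 10 lower on RC, with medians of −0.60 and −0.63. The stellate cell and fibroblast list had 3 of 7 lower on HFHS and 6 of 7 lower on RC, and acinar genes had 6 of 10 higher on HFHS. Of the 12 beta cell genes, 7 were higher and 1 lower on HFHS, with a median of 0.25, and 1 was higher on RC. Of the 8 pericyte and smooth muscle genes, 3 were higher on HFHS and 6 lower on RC. The part of these cell types in the falling members was not tested.

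Some members stayed below the calls throughout. Across the 21 comparisons other than the single-strain diet contrasts, 9 members were called in none, Kcnb2, Kcnj6, Kcnk6, Kcnmb1, Kcnn3, Kcnrg and Kcnu1 among them, a share of 14.8% beside 22.8% of all genes tested. A p that misses the threshold does not show that these genes were equal, and Kcnn3 was called in AKR/J for diet. Kcnma1, the BK pore, was called once, for a diet change that differed between strains. Kcnmb1 lies inside Kcnip1 and Kcnrg inside Dleu2, so reads from introns of the host gene can add to their low counts.

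Genes of other symbols whose products join potassium channels were followed as a list of 16, of which 15 were tested. Over all days on HFHS, 1 was higher and 5 lower. Dpp6, an auxiliary subunit of Kv4 channels, changed by −0.12 ± 0.02 (adjusted p = 1.7e-05), Lrrc55, a BK auxiliary subunit, by −0.21 ± 0.05 and Cntnap2, which gathers Kv1 channels at axons, by −0.13 ± 0.03. By strain, Lrrc38, another BK auxiliary subunit, was higher in DBA/2J by 3.07 ± 0.10 on HFHS and 3.00 ± 0.10 on RC and lower in BALB/cJ by −2.08 ± 0.16 and −2.15 ± 0.16.

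Of 37 other channels and pumps of islet electrical activity, 1 was higher and 1 lower over all days on HFHS. Cacna2d3, a calcium channel auxiliary subunit, rose by 0.18 ± 0.05 and Trpm2, a cation channel, changed by −0.13 ± 0.04. With time Cacna2d3 rose on both diets, by 0.52 ± 0.09 on HFHS and 0.81 ± 0.09 on RC. Between strains Cacna2d3 was higher in 129S2/SvPas by 1.93 ± 0.07 on HFHS and 1.86 ± 0.07 on RC.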

How the data were processed

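RNA-seq of islets was deposited as a table of raw read counts per gene, 1 column a mouse. Per the submitters' processing notes the authors used edgeR, HTSeq 0.5.3p3, TopHat 1.3.3 and SAMtools 0.1.16 with genome build mm9; the roles and settings are not given in the sources used here. Per the labels' protocols, libraries were made from 200 ng of total RNA with an Illumina TruSeq RNA v2 kit. The deposited counts were whole numbers with 21382 gene symbols. The column of every library was matched to its mouse by name.

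CPM was computed here from the counts, and per kilobase with exon lengths of GENCODE M21. All libraries were fitted together with 1 mean for each of 48 groups (edgeR 4.0.16, TMM scaling, filterByExpr, robust glmQLFit, glmQLFTest; R 4.3.3), and p-values were adjusted by Benjamini-Hochberg over the 16498 genes that passed the filter. A second fit added a per-library offset for gene GC content. Named members with fold changes are up to 6 higher and 6 lower per comparison with the largest change called in both fits; levels are given for the 10 members highest per kilobase and those called in a strain on both diets. Counts of cell type markers use the same calls. In simulated counts for all libraries, the diet test over all days recovered 79 of 99 genes changed by 0.25 on the log2 scale. It recovered 92 of 100 changed by 0.5 and called 15 of 16069 unchanged genes. The diet test at day 90 recovered 45 of 99 and 82 of 100. The simulation gave each gene the same mean in every strain and day and no GC shift. It therefore does not show how the calls hold with such differences. Mice of the same number in a strain and day were tried as a block. DESeq2 1.42.0 and other alternatives are reported in the closing section. Some members and listed genes are not reported here. The members and all lists were chosen with earlier results of these data known. Intervals over libraries measure spread between mice, and the p-values assume 1 mouse a library, as labelled.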

Additional observations from a re-analysis of the deposited data

Results flagged for a closer look

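The summed CPM of the 61 members set 1 library apart from its group in 4 of the 47 groups tested, each time as the lowest; chance sets apart about 1 group in 20. In 129S2/SvPas on HFHS 1 mouse at day 90 had 704 CPM, with the next at 1193 CPM, and 1 mouse at day 10 had 1132 CPM, with the next at 1322 CPM. In AKR/J on HFHS at day 90 the lowest mouse had 1017 CPM and the next 1140 CPM. In C57Bl/6J on RC at day 90 the lowest had 1034 CPM and the next 1189 CPM. The 129S2/SvPas mouse at day 90 was among the 41 libraries of shifted GC content, with a slope of 0.679 on the log2 scale per 10 percentage points, and the other 3 were not, with slopes of 0.0495, 0.193 and 0.199.

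The change with diet differed between strains beyond the spread between mice for many members, and the 8 smallest adjusted p in edgeR's quasi-likelihood test after the GC correction were 1.40e-11 for Kcnk12, 7.21e-08 for Kcna1, 1.19e-07 for Kcnk3, 1.29e-07 for Kcnd3, 1.57e-07 for Kcna6, 2.64e-07 for Kcnk2, 2.28e-06 for Kcna5 and 1.25e-05 for Kcnc4. Without the correction the adjusted p of Kcnk3 was 0.0215, and that of each of the other 7 was also under 0.05. Of all genes tested, 51.6% passed the same test.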

How the results depend on the processing

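Counts here are of members called by edgeR's quasi-likelihood test without the GC correction: 21, 0, 15 and 18 for diet at days 2, 10, 30 and 90 and 20 over all days. Strain counts here include Kcnj5, unlike the earlier ones. With all libraries it was called in every strain on both diets. It is a member through DBA/2J alone, so each of these counts holds a call that the choice of members affects. DESeq2's size factors in the same test, no filter on low counts and TMM-scaled summed CPM moved none of the counts or levels by more than 1.5 times, and DESeq2's Wald test called 20, 0, 15, 17 and 21. Without the 41 libraries of shifted GC content, where a strain left without mice dropped out of a day's mean, 10 members were called at day 2, 6 at day 10, 26 at day 30 and 32 over all days, and 4 on RC in AKR/J (7 with all libraries) and in C57Bl/6J (2 with all libraries). There Kcnh3 with time on HFHS was −0.00246 on the log2 scale (adjusted p = 0.999), against 0.67 with all libraries. The GC correction called 4 members in AKR/J on RC and 3 on HFHS, against 7 and 5. Without the 9 libraries that matched another strain, 1 member was called at day 10 and 4 in C57Bl/6J on RC; with the GC correction as well, 3 at day 10, 4 and 3 in AKR/J on RC and HFHS, and 4 and 5 in C57Bl/6J on RC and HFHS. The cause of these moves was not tested, and shares of all genes under the alternatives of this section were not computed.

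Mice of the same number in a strain and day were not taken as pairs: in 4 strains, the deviations from the group means correlated over 0.1 in 34 such pairs and not in 70 (median −0.00707, range −0.858 to 0.694), though all 7 pairs of BALB/cJ at day 90 were over it, at 0.152 to 0.694. With the number as a replicate block, in these 208 mice, 20, 0, 3 and 6 members were called at days 2, 10, 30 and 90 and 10 over all days; the diet change differed between strains for 25 (40 with all mice) and between days for 10 (25 with all mice). The replicate block with the GC correction called 11, 1, 5 and 8 at the 4 days, 14 over all days and 15 between days. The same 208 mice without a block, an alternative chosen after seeing the data, gave 24, 0, 3 and 6 at the 4 days, 13 over all days and 25 between strains. Kcnk12 changed sign in these mice: at day 90 it was −0.0193 with the block, −0.0194 with block and GC correction and −0.0207 without a block, against 0.81 in all mice, and over all days −0.0965 with the block and −0.0818 without it, against 0.33.

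Leaving out each mouse of the groups of 4 or 5 in turn was run in a Wald form of the quasi-likelihood test. It gave 0 to 1 member at day 10, the 1 without A/J RC replicate 14, and moved no other count by more than 1.5 times. With all libraries the member counts of both forms differed by up to 1. The move at day 10 therefore cannot be told apart from the change of form. Members near 0.5 CPM had the fewest reads, and how small a change could be detected there was not tested.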
